A study of Mus musculus with 18 samples.

Results

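The genes described here are 10 members of the interleukin-2 (IL-2) receptor pathway: the receptor chains Il2ra, Il2rb and Il2rg, the Janus kinases Jak1 and Jak3, the transcription factors Stat5a and Stat5b, and the feedback inhibitors Socs1, Socs2 and Cish. They were chosen as a pathway and not by a rule on their values, but with earlier results of these data known. All 10 were found in the count table of 23420 genes, and all 10 were among the 10630 genes with enough counts to be tested. Bulk RNA sequencing had been done on regulatory T cells (Treg cells) sorted from mice. The labels give the genotypes FCre x C1fl/fl, FCre x C1fl/+ and FCre x C1+/+, written below as fl/fl, fl/+ and +/+, so that FCre is shared by every group, the +/+ one included. They do not expand FCre or C1, and they name neither the promoter behind FCre nor the age, the sex or the sorting gates. In each genotype cells were labelled Effector or Resting, with batch numbers 1 to 3. This makes 18 libraries in 6 groups of 3. The labels do not say that the 3 libraries of a group come from separate mice, so each p-value measures the spread between these libraries, which may be technical.

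IL-2 binds a receptor of 3 chains. The alpha chain (CD25) raises the affinity for IL-2, while the beta chain and the common gamma chain carry the signal by way of JAK1 and JAK3, which phosphorylate STAT5. STAT5 enters the nucleus and switches on, among other genes, the SOCS-box inhibitors Cish, Socs1 and Socs2, which damp the receptor and its kinases. Treg cells carry much CD25 and make little IL-2 themselves, and they need IL-2 from other T cells and STAT5 to keep Foxp3 and to survive.

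Library totals were 1658073 to 5756903 expected counts, and no member had fewer than 90 counts in any library. On the first principal component, which set effector apart from resting libraries, some fl/fl libraries stood apart from their groups. Effector replicates 2 and 3 of fl/fl were at 2.54 and 12.2, against 25.6 to 41.9 for the other 7 effector libraries, and resting replicate 1 of fl/fl was at -12.5, against -38.5 to -23.1 for the other 8 resting libraries. For the label of Treg cells, 6 markers were summed (Foxp3, Ikzf2, Ctla4, Il2ra, Cd4 and Cd3e), at 1934 to 3386 CPM (expected counts scaled to a common library size). Other T cells share Cd4 and Cd3e, and Il2ra is one of the 10 genes. This sum alone therefore does not tell Treg cells from other T cells. The summed level of 5 B cell markers was 9.64 to 91.6 CPM, highest in +/+ resting replicate 3. For 2 NK cell markers it was 0 to 22.9 CPM, highest in fl/fl effector replicate 1, and for 4 myeloid markers 1.16 to 9.61 CPM. The 2 CD8 T cell markers summed to 11.1 to 18.9 CPM in effector libraries, against 20.5 to 29.2 CPM in resting libraries, with no overlap, and Cd8b1 was lower in effector cells with the mean of 3 genotypes (-0.65, SE 0.11, edgeR adjusted p = 9.91e-05). The 4 dendritic cell markers summed to 2.42 to 6.55 CPM in effector libraries, against 1.97 to 4.69 CPM in resting libraries, and Xcr1 was higher (0.79, SE 0.26, edgeR adjusted p = 0.0259). The part of these cells in the differences between states was not tested. In these bulk libraries, a smaller share of cells that express a gene and less of its RNA per cell cannot be told apart.

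Cish is the textbook STAT5 target of the group, and its promoter is printed to show the sequence that STAT5 dimers are known to bind. The STAT5 consensus TTCNNNGAA reads the same on both strands. RefSeq promoter windows of 300 bases (250 before to 50 after the start, GRCm38.p6) were found for 8 of the 10 genes, and Il2rb and Socs2 had no entry. Of the 8 genes, 1 held a match. This was Cish, with 2 matches, whose first bases lie 0 and 11 bases after the RefSeq start. Of the 27025 genes in the table, 9.55% held a match in at least 1 window, and of its 32851 windows 8.3% held at least 1 match and 0.457% at least 2. In the plus strand of Cish, chr9:107296409-107296708, the matches are in capitals.
Cish: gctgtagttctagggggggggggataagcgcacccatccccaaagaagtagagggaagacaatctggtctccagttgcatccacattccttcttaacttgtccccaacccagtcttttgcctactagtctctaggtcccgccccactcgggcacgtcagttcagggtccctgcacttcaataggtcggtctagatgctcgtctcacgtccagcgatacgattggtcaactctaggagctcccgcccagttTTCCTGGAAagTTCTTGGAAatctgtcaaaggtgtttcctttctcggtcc
The NF-kB consensus was also searched on both strands. It was found in the window of Il2ra and in 1 of the windows of Stat5a, against 8.46% of all windows. In Il2ra there were 2 overlapping matches, with first bases 201 and 200 bases before the start, and they are in capitals in the plus strand of chr2:11642542-11642841.
Il2ra: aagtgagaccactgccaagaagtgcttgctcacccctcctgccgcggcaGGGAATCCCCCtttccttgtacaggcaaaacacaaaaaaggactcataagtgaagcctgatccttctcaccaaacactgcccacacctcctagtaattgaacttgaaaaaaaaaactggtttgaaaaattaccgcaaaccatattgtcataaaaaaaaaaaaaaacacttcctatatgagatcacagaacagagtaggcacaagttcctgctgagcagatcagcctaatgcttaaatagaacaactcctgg
A match describes letters and is no evidence that a factor binds.

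Levels of different genes were compared on FPKM, which takes transcript length into account. The common gamma chain Il2rg was the most abundant, with a median of 614 FPKM over the 18 libraries (530 to 688). The beta chain Il2rb followed at 249 FPKM (167 to 326), and Jak1 at 134 FPKM (106 to 158). Next came Cish at a median of 108 FPKM, Jak3 at 77.8, Socs1 at 74.3 and Il2ra at 74.2 FPKM. The lowest medians were 39.3 FPKM for Stat5a, 34.5 for Stat5b and 29.0 for Socs2. The ranges of Il2rg, of Il2rb and of the other genes did not overlap, and neither did those of Il2ra and Stat5a, while each other gene's range overlapped that of the next gene in the order. Within 1 gene, the 6 groups were also put in order of mean CPM. In 44 of 50 neighbouring pairs of groups the libraries overlapped, and the 6 pairs that did not were 2 for Jak3 and 1 each for Il2rg, Jak1, Stat5a and Socs2. Such pairs were not counted over all tested genes, so whether these numbers are unusual cannot be said.

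**Figure D1:**
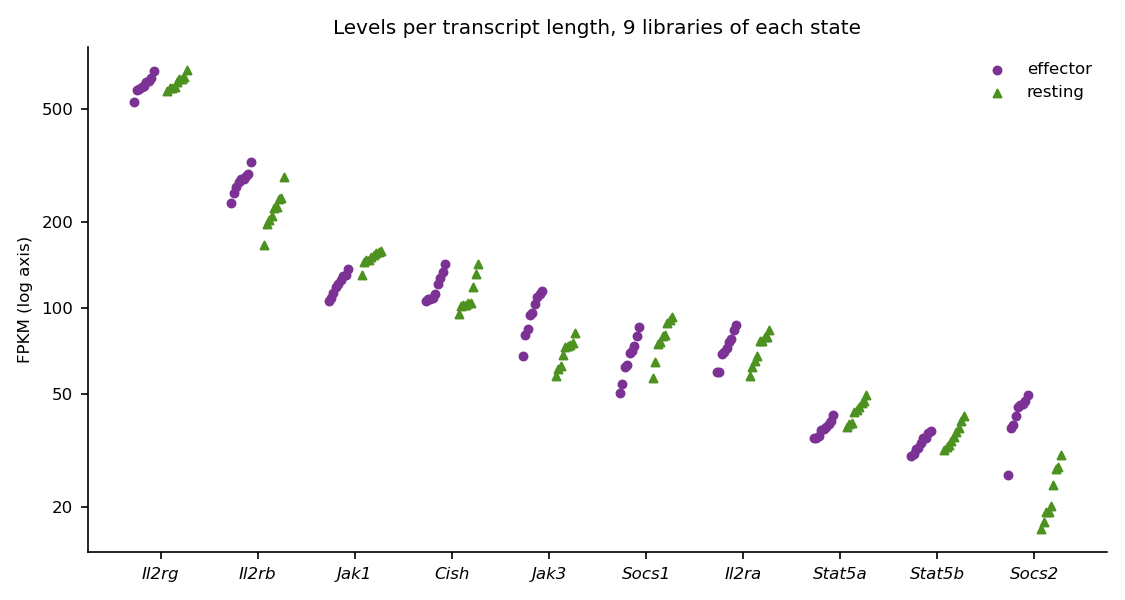
FPKM on a log axis for each gene in order of its median over 18 libraries, with 9 effector libraries as circles left of 9 resting libraries as triangles. Il2rg lay at 530 to 688 FPKM, above every other gene, and Socs2 had the lowest median, 29.0 FPKM.

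With the mean of the 3 genotypes, the kinases and the inhibitor Socs2 moved most between states. In that comparison 3 genes were higher in effector cells (Socs2, Jak3 and Il2rb) and 4 were lower (Jak1, Stat5a, Stat5b and Il2rg), in the edgeR quasi-likelihood test at a Benjamini-Hochberg adjusted p under 0.05 over all genes. Il2ra, Socs1 and Cish were not called. Beside them 17.5% of all tested genes were called higher and 15.4% lower, so that calls were common in both directions among genes at large. The median log2 change of the 10 genes was -0.10, against -0.01 over all tested genes, and their median change regardless of sign was 0.26, against 0.20. These changes are small: that of Socs2 was 1.73-fold in effector over resting cells, and those of the other 6 called genes lay between 0.756-fold for Jak1 and 1.28-fold for Jak3.

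**Figure D2:**
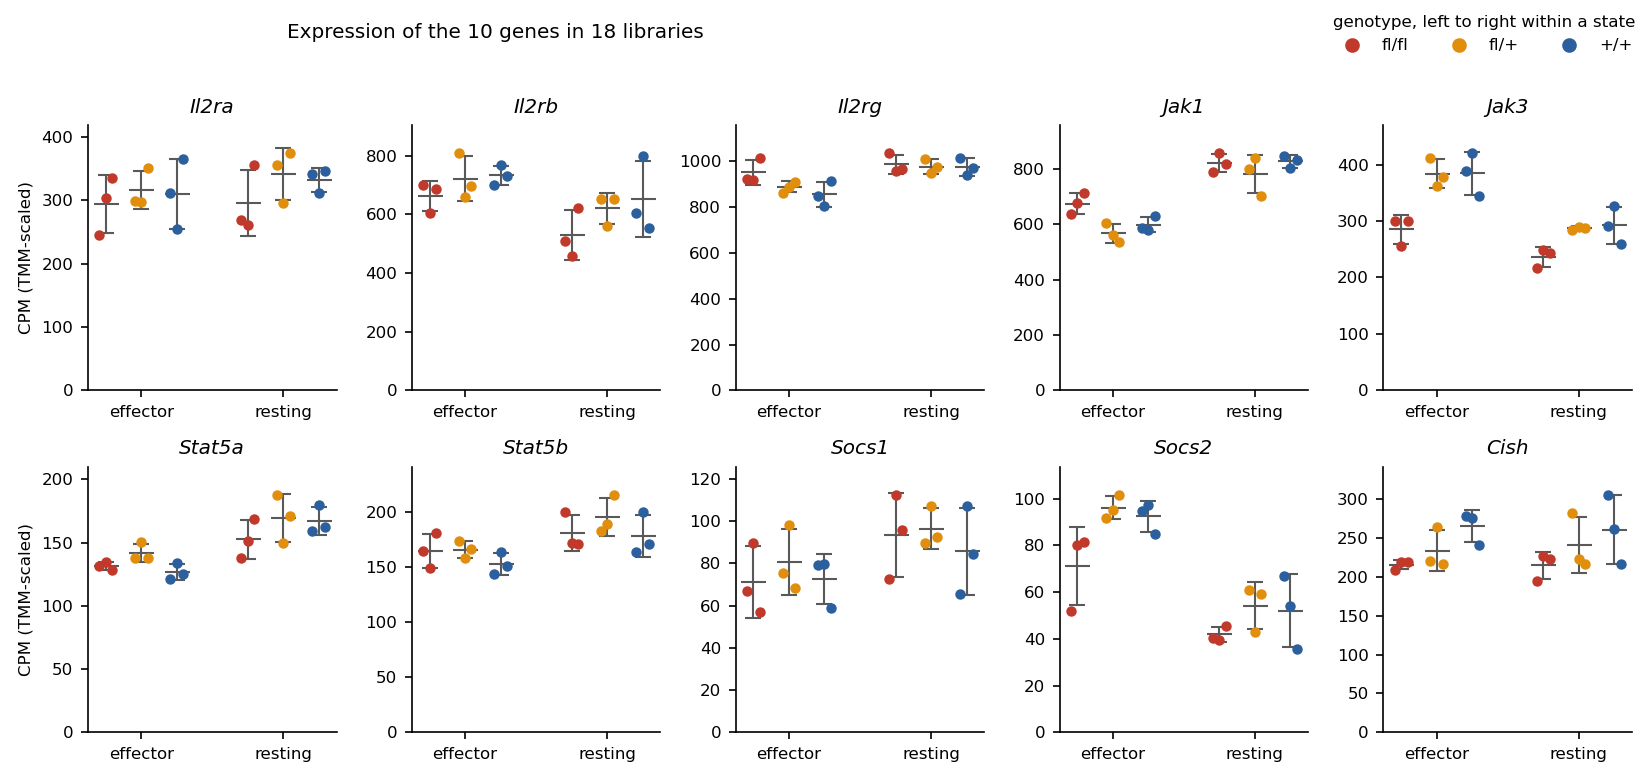
TMM-scaled CPM of each gene in 18 libraries, effector left of resting, with fl/fl, fl/+ and +/+ from left to right, and each point a library, with the mean and SD of 3 as bars. Socs2 and Jak3 sit higher in effector libraries and Jak1 lower, while Jak3 is lowest in the fl/fl libraries of each state.

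Within single genotypes fewer genes were called. In fl/fl, Socs2 was higher and Jak1 lower in effector cells, where 5.01% of all tested genes were called higher and 1.33% lower. In fl/+, Socs2 and Jak3 were higher and Jak1 lower, beside 9.72% and 6.58% of all tested genes. In +/+, Socs2 and Jak3 were higher and Jak1 and Stat5a lower, beside 9.49% and 6.50%. Whether a change differed between genotypes was tested directly. None of the 30 tests (10 genes, 3 pairs of genotypes) was called by edgeR, by DESeq2 or by limma on FPKM, and none had an unadjusted p under 0.05 in edgeR. For Jak1 in fl/fl against +/+ the difference of the changes was 0.18 with a 95% interval of -0.06 to 0.42 (edgeR adjusted p = 0.681), and no other test gave a lower adjusted p. Over all tested genes these tests called 0% for fl/fl against +/+, 0.0188% for fl/+ against +/+ and 0.00941% for fl/fl against fl/+.

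**Figure D3:**
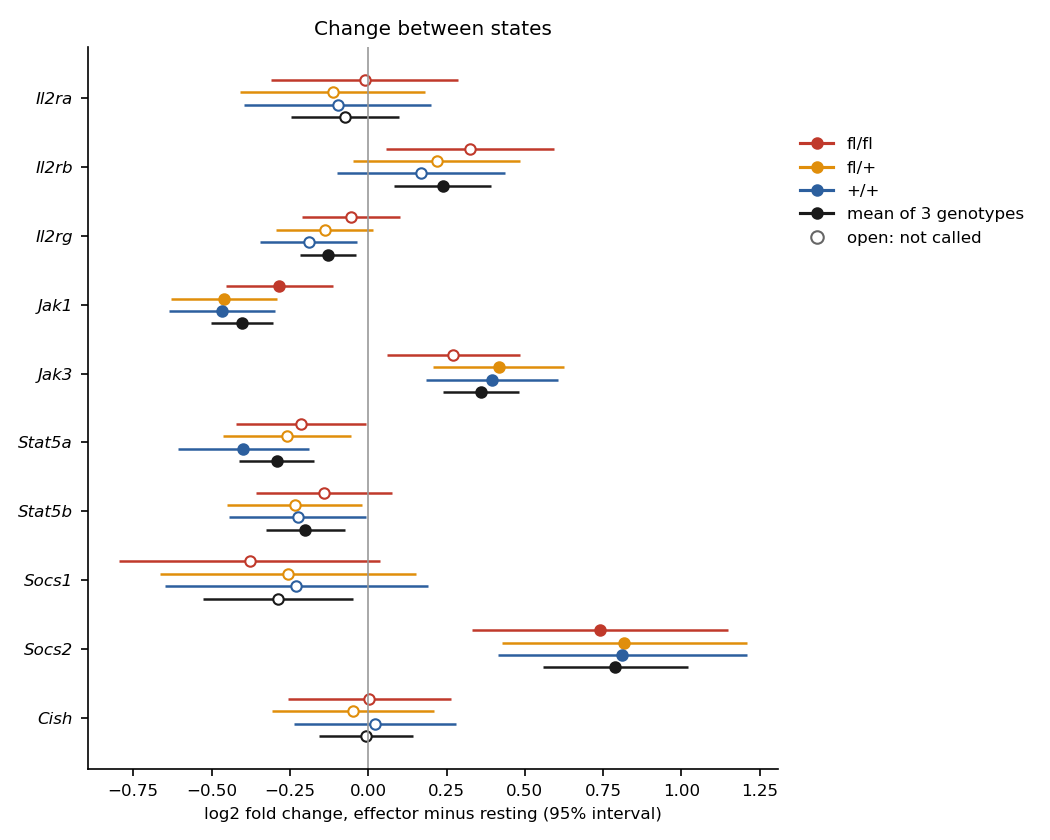
Log2 fold change of effector over resting cells for each gene, with its 95% interval, in fl/fl, fl/+, +/+ and the mean of 3 genotypes, where filled points were called at an adjusted p under 0.05. Socs2 is the farthest to the right, at 0.74 in fl/fl, 0.82 in fl/+ and 0.81 in +/+, and Jak1 the farthest to the left in fl/+ and +/+, at -0.46 and -0.47.

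The receptor chains changed little between states. Il2ra (chromosome 2, 11642807 to 11693193), which encodes CD25, ran from 244 to 365 CPM in effector libraries with a median of 303, against 262 to 374 CPM with a median of 341 in resting libraries. The states overlapped widely, and in 3 of 9 pairs of the same genotype and batch number the effector library was higher. The mean change was -0.07 (SE 0.08, edgeR adjusted p = 0.531), with a 95% interval of -0.25 to 0.10 that leaves room for changes of that size.

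Il2rb (chromosome 15, 78479256 to 78495271), the signalling beta chain that IL-2 shares with IL-15, was higher in effector cells. It had 699, 606 and 687 CPM in fl/fl effector cells, against 510, 456 and 623 CPM in fl/fl resting cells. In fl/+ it had 808, 660 and 698 CPM in effector cells, against 651, 559 and 651 CPM in resting cells. In +/+ it had 701, 767 and 731 CPM in effector cells, against 605, 799 and 553 CPM in resting cells. Effector libraries were higher in 8 of 9 pairs, and the exception was the pair of +/+ replicate 2, whose resting library was the highest of the resting ones. With the mean of 3 genotypes Il2rb rose by 0.24 (SE 0.07, edgeR adjusted p = 0.0176). It was not called within a genotype (fl/fl 0.33, SE 0.13, edgeR adjusted p = 0.157), although in fl/fl it was called when each pair of libraries was fitted as a block (edgeR adjusted p = 0.0225). NK cells also carry this chain, and the summed level of the 2 NK markers was 0.671 to 22.9 CPM in effector libraries, against 0 to 5.96 CPM in resting libraries. Of these, Klrb1c was called higher in effector cells with the mean of 3 genotypes (2.78, SE 0.74, edgeR adjusted p = 0.0067). Without fl/fl effector replicate 1, the library with the highest NK level, the Il2rb change was 0.23 (edgeR adjusted p = 0.0328). The part of NK cells in the result was not tested.

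Il2rg (chromosome X, 101264378 to 101268255) encodes the common gamma chain, used by the receptors for IL-2, IL-4, IL-7, IL-9, IL-15 and IL-21. It ran from 803 to 1014 CPM in effector libraries with a median of 910, against 939 to 1032 CPM with a median of 969 in resting libraries. Of the 9 effector libraries, 8 lay below all resting ones, and the exception was fl/fl replicate 3. The mean change was -0.13 (SE 0.04, edgeR adjusted p = 0.0271), and it was lost in 13 of 26 alternative analyses. These include the fits without any one of +/+ resting replicate 1, +/+ effector replicates 1 and 2, fl/+ resting replicates 1 and 3, fl/+ effector replicates 1 and 2, fl/fl resting replicate 1, and fl/fl effector replicates 1 and 2. On FPKM, fitted without TMM scaling, the change was -0.03 (limma adjusted p = 0.612). The median change of all genes was higher on that scale. In the annotation, 30.5% of the exon bases of Il2rg are shared with Gm20489, a read-through gene model on the same strand that has no row in the count table.

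The kinases of the receptor moved in opposite directions. Jak1 (chromosome 4, 101152367 to 101265282), which binds the beta chain and also serves receptors of interferons and the IL-6 family, was lower in effector cells. It had 635, 677 and 710 CPM in fl/fl effector cells, against 788, 855 and 816 CPM in fl/fl resting cells. In fl/+ it had 604, 562 and 536 CPM in effector cells, against 800, 837 and 702 CPM in resting cells. In +/+ it had 585, 580 and 630 CPM in effector cells, against 847, 802 and 832 CPM in resting cells. Within each genotype every effector library lay below every resting library. Jak1 fell by 0.40 with the mean of 3 genotypes (SE 0.05, edgeR adjusted p = 1.57e-06), by 0.46 in fl/+ (SE 0.08, edgeR adjusted p = 0.000573) and by 0.47 in +/+ (SE 0.08, edgeR adjusted p = 0.000499). In fl/fl it fell by 0.28 (SE 0.08, edgeR adjusted p = 0.0418). That last call was close to the threshold and was lost in 18 of 27 alternatives, with adjusted p values of 0.0153 to 0.228 and no change of sign. Of the 18 fits that left out a library, it was kept in those without +/+ resting replicate 1, +/+ effector replicate 3 and fl/+ resting replicates 2 and 3. Without each fl/fl library that stood apart, the change was -0.31 (resting replicate 1, edgeR adjusted p = 0.0535), -0.28 (effector replicate 2, edgeR adjusted p = 0.0804) and -0.31 (effector replicate 3, edgeR adjusted p = 0.0571).

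Jak3 (chromosome 8, 71676296 to 71690575) is bound to the common gamma chain and is found mostly in blood cells. It was higher in effector cells. In fl/fl it had 299.7, 255 and 300.5 CPM in effector cells, against 216, 249 and 244 CPM in resting cells. In fl/+ it had 412, 362 and 378 CPM in effector cells, against 284, 290 and 288 CPM in resting cells. In +/+ it had 389, 420 and 345 CPM in effector cells, against 292, 326 and 259 CPM in resting cells. The states did not overlap within any genotype, and the effector library was higher in 9 of 9 pairs. Jak3 rose by 0.36 with the mean of 3 genotypes (SE 0.06, edgeR adjusted p = 6.38e-05), by 0.42 in fl/+ (SE 0.10, edgeR adjusted p = 0.0064) and by 0.39 in +/+ (SE 0.10, edgeR adjusted p = 0.00968). The +/+ call was lost without effector replicate 2 or without resting replicate 3, with an adjusted p of up to 0.0592. In fl/fl the change was 0.27 (SE 0.10, edgeR adjusted p = 0.131), and limma on log2(FPKM + 1) called it (0.35, adjusted p = 0.0401). FPKM values were fitted without TMM scaling, and there the median change of all genes was higher with the mean of 3 genotypes. These values are therefore not on the same scale. Jak3 shares 7.55% of its exon bases with Insl3 on the same strand, and Insl3 had at most 5.9 expected counts in any library.

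Stat5a and Stat5b, neighbours on chromosome 11 with 8626 bases between them, encode closely related factors that act downstream of the receptor. Both were lower in effector cells. Stat5a (100859351 to 100885169) had 131, 135 and 128 CPM in fl/fl effector cells, against 138, 151 and 169 CPM in fl/fl resting cells. In fl/+ it had 138, 150.2 and 138 CPM in effector cells, against 187, 150 and 171 CPM in resting cells. In +/+ it had 122, 134 and 125 CPM in effector cells, against 159, 180 and 163 CPM in resting cells. Of the 9 effector libraries 8 lay below all resting ones, and the exception was fl/+ replicate 2. Stat5a fell by 0.29 with the mean of 3 genotypes (SE 0.06, edgeR adjusted p = 0.000499) and by 0.40 in +/+ (SE 0.10, edgeR adjusted p = 0.00858). The +/+ call was lost without resting replicate 2 (adjusted p = 0.0604). The change was -0.21 in fl/fl (SE 0.10, edgeR adjusted p = 0.243) and -0.26 in fl/+ (SE 0.10, edgeR adjusted p = 0.0787), which was called without fl/+ resting replicate 2 (-0.33, adjusted p = 0.0432).

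Stat5b (100780731 to 100850724) ran from 144 to 181 CPM in effector libraries with a median of 163, against 164 to 215 CPM with a median of 183 in resting libraries. The states overlapped, with 5 of 9 effector libraries below all resting ones. The mean change was -0.20 (SE 0.06, edgeR adjusted p = 0.0138), and no genotype alone was called. On FPKM, fitted without TMM scaling, the change was -0.09 (limma adjusted p = 0.304). The median change of all genes was higher on that scale. The call therefore rests on the counts with TMM scaling, and it was also lost without +/+ resting replicate 2. The copies share sequence: 15.8% of the 50-base stretches of the longest coding Stat5a transcript occur among the coding transcripts of Stat5b. Of those of the longest coding Stat5b transcript, 11.8% occur among the coding transcripts of Stat5a. Their counts were fractional in 18 of 18 libraries, as RSEM divides reads that fit several genes, so the split between the copies is uncertain.

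Among the inhibitors, Socs2 stood out. Socs2 (chromosome 10, 95385362 to 95417180), best known as a brake on growth hormone signals and induced by STAT5, had 51.8, 80.2 and 81.6 CPM in fl/fl effector cells, against 40.6, 39.7 and 45.5 CPM in fl/fl resting cells. In fl/+ it had 91.9, 95.3 and 101 CPM in effector cells, against 60.7, 42.9 and 59.2 CPM in resting cells. In +/+ it had 94.8, 97.3 and 85.0 CPM in effector cells, against 66.7, 53.9 and 35.5 CPM in resting cells. Of the 9 effector libraries 8 lay above all resting ones, and the exception was fl/fl replicate 1, which also had the highest NK marker level. The lowest resting library, +/+ replicate 3, had the highest B cell marker level, and the part of other cells in these values was not tested. Socs2 rose by 0.79 with the mean of 3 genotypes (SE 0.11, edgeR adjusted p = 1.32e-05), by 0.82 in fl/+ (SE 0.19, edgeR adjusted p = 0.00441) and by 0.81 in +/+ (SE 0.19, edgeR adjusted p = 0.00547). In fl/fl it rose by 0.74 (SE 0.20, edgeR adjusted p = 0.0269). The fl/fl call was lost without any one of resting replicates 1, 2 and 3 or effector replicates 2 and 3, at changes of 0.63 to 0.80 and adjusted p values of 0.0636 to 0.101. Without effector replicate 1 it was 0.95 (edgeR adjusted p = 0.00843).

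Socs1 (chromosome 16, 10782240 to 10785536) inhibits JAK kinases directly and restrains interferon and common gamma chain signals. It ran from 56.8 to 98.4 CPM in effector libraries with a median of 75.6, against 65.7 to 112 CPM with a median of 92.5 in resting libraries. Effector libraries were lower in 8 of 9 pairs. The mean change was -0.29 (SE 0.11, edgeR adjusted p = 0.0607), and with the batch number as a block it was called (-0.28, edgeR adjusted p = 0.0088). It was also called with no filter, and without any one of +/+ resting replicate 1, fl/+ effector replicate 2, fl/fl resting replicate 1 and fl/fl effector replicate 2 (edgeR adjusted p = 0.0217 to 0.0347).

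Cish (chromosome 9, 107296026 to 107302784), the gene with the paired STAT5 matches printed above, did not follow Socs2. It had 209, 218.7 and 218.8 CPM in fl/fl effector cells, against 195, 227 and 223 CPM in fl/fl resting cells. In fl/+ it had 219.97, 264 and 216.5 CPM in effector cells, against 282, 223 and 216 CPM in resting cells. In +/+ it had 278, 275 and 241 CPM in effector cells, against 304, 261 and 216 CPM in resting cells. The states overlapped in every genotype, with 5 of 9 pairs higher in effector cells. The mean change was -0.01 (SE 0.07, edgeR adjusted p = 0.949), with a 95% interval of -0.16 to 0.14. The annotation places the antisense genes Gm17041 and Gm17040 over 7.46% and 4.07% of the exon bases of Cish. The strand setting of the counting is not given in the sources used here, so reads of either strand cannot be told apart.

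Between genotypes, Jak3 was the gene with a call. In effector cells Jak3 averaged 285 ± 26.0 CPM in fl/fl and 385 ± 37.6 CPM in +/+ (SD, n = 3 each), and the 3 fl/fl libraries lay below the 3 +/+ libraries. The difference of fl/fl minus +/+ was -0.43 (SE 0.10, edgeR adjusted p = 0.0281), or 0.741-fold. Jak3 was the only called gene of the 10 there, while 2.81% of all tested genes were called. The libraries of these groups also did not overlap for Il2rb, Il2rg, Jak1, Socs2 and Cish, which were not called. How often groups lay apart over all genes was not counted. The Jak3 call was lost in 5 of 26 alternatives. These were the fit to the compared groups alone (adjusted p = 0.0821) and the fits without +/+ effector replicate 1 (0.121) or 2 (0.149), and without fl/fl effector replicate 2 (-0.36, adjusted p = 0.178) or 3 (-0.48, adjusted p = 0.0565). These fl/fl replicates are the effector libraries that stood apart on the first component. The sign stayed negative in all 26.

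Against the heterozygous libraries the Jak3 difference was of like size. In effector cells Jak3 averaged 285 ± 26.0 CPM in fl/fl and 384 ± 25.5 CPM in fl/+ (SD, n = 3 each), with no overlap. The libraries of these groups also did not overlap for Il2rg, Jak1, Stat5a and Socs2, which were not called. Over all genes, how often these groups lay apart was not counted either. The Jak3 difference of fl/fl minus fl/+ was -0.43 (SE 0.10, edgeR adjusted p = 0.0532), which was not called. It was called with the batch number as a block (edgeR adjusted p = 0.0304) and by DESeq2 (adjusted p = 0.00688). Both of these fits called more of all genes than the edgeR test without the block, which called 0.677%. The Jak3 difference was also called without any one of +/+ resting replicate 3, +/+ effector replicate 3, fl/+ effector replicate 2, fl/fl resting replicate 1 and fl/fl effector replicate 1 (edgeR adjusted p = 0.0314 to 0.0476). Both differences share the fl/fl libraries. For fl/+ minus +/+ in effector cells the Jak3 difference was 0.00 (SE 0.10), with a 95% interval of -0.21 to 0.21.

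In resting cells the direction for Jak3 was the same but was not called. It averaged 236 ± 17.6 CPM in fl/fl and 292 ± 33.2 CPM in +/+ (SD, n = 3 each), again with no overlap. The difference was -0.31 (SE 0.10, edgeR adjusted p = 0.258). Against fl/+ resting cells, at 287 ± 3.05 CPM, it was -0.28 (SE 0.10, edgeR adjusted p = 0.884).

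Markers of cell states and of other cells moved with the Jak3 difference in effector cells. The summed level of 5 effector markers (Icos, Tigit, Klrg1, Prdm1 and Cd44) was 303 to 783 CPM in fl/fl effector libraries, against 774 to 1164 CPM in +/+ effector libraries. The summed level of 4 resting markers (Ccr7, Lef1, Satb1 and Bach2) was 1040.2 to 1543 CPM in fl/fl effector libraries, against 596 to 967 CPM in +/+ effector libraries. For 5 cell cycle markers the sums were 266 to 368 CPM in fl/fl effector libraries and 99.4 to 258 CPM in +/+ effector libraries. The 6 markers summed for the Treg label, not all of them particular to Treg cells, were at 1992.5 to 2614 CPM in fl/fl effector libraries. In +/+ effector libraries they were at 2866 to 3386 CPM, and 2 of them were called lower in fl/fl (Ikzf2 and Ctla4). B cell markers summed to 16.9 to 28.9 CPM in fl/fl effector libraries and 29.9 to 40.7 CPM in +/+ effector libraries, and CD8 T cell markers to 18.1 to 18.9 CPM in fl/fl and 14.8 to 17.1 CPM in +/+. The part of these states and cells in the Jak3 result was not tested.

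**Figure D4:**
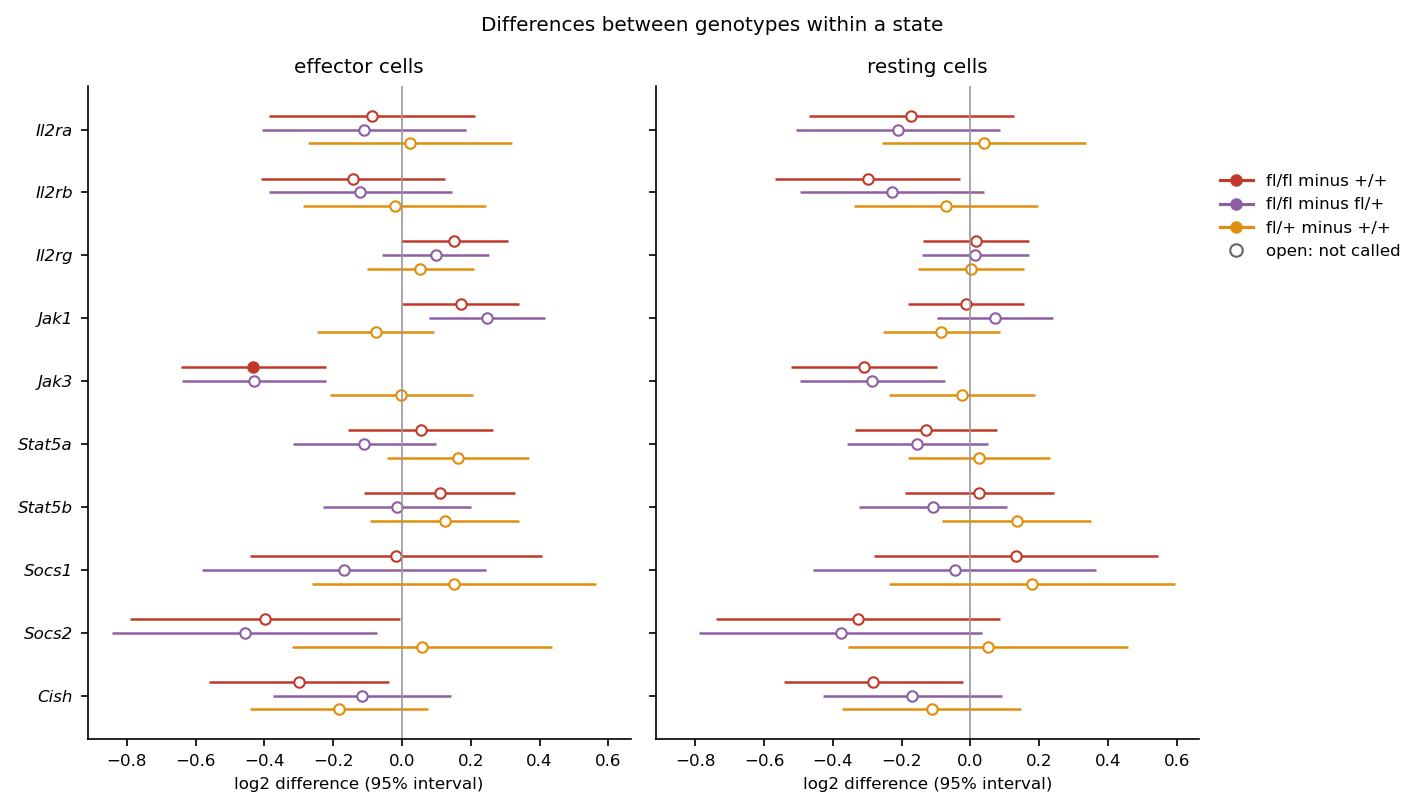
Log2 difference with its 95% interval for fl/fl minus +/+, fl/fl minus fl/+ and fl/+ minus +/+, in effector cells (left) and resting cells (right), where the filled point was called. Jak3 in effector cells is the one filled point, at -0.43 for fl/fl minus +/+.

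Other members missed the threshold between genotypes. Of fl/fl minus +/+ in effector cells, the Cish value was at -0.30 (SE 0.13, edgeR adjusted p = 0.212), Socs2 at -0.40 (SE 0.19, edgeR adjusted p = 0.28) and Jak1 at 0.17 (SE 0.08, edgeR adjusted p = 0.29). Il2rg was at 0.15 there (SE 0.07, edgeR adjusted p = 0.305). In resting cells Cish was at -0.28 (SE 0.12, edgeR adjusted p = 0.553) and Il2rb at -0.30 (SE 0.13, edgeR adjusted p = 0.531). For Il2ra the 95% intervals of fl/fl minus +/+ were -0.39 to 0.21 in effector cells and -0.47 to 0.13 in resting cells. For Stat5a they were -0.16 to 0.27 and -0.34 to 0.08, and for Stat5b -0.11 to 0.33 and -0.19 to 0.24, so modest differences in either direction remain possible. None of the 10 genes was called by edgeR for fl/fl minus +/+ in resting cells (3 with an unadjusted p under 0.05; 0.696% of all genes called) or for fl/fl minus fl/+ in resting cells (1 such gene; 0.0282% called). None was called for fl/+ minus +/+ in effector cells (0 such genes; 0.00941% called) or in resting cells (0 such genes; 0.0847% called). DESeq2 and limma on FPKM also called none of the 10 in those 4 comparisons. In fl/fl minus fl/+ effector cells, 3 of the 10 had an unadjusted p under 0.05. The share of all genes with an unadjusted p under 0.05 was not counted. The counts of members with such a p therefore cannot be set against the percentages above, which are of adjusted calls.

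Genes around the 10 were described by lists drawn from general knowledge, with the mean of 3 genotypes, effector minus resting. Over all tested genes, 17.5% were called higher and 15.4% lower there, with a median change of -0.01, and the counts of each list below stand beside these shares. Of 6 cytokines that use the common gamma chain, Il2, Il4, Il7, Il9 and Il15 were too low to be tested. Il2 reached at most 12 expected counts, with none in 9 of 18 libraries. Il21, a helper cytokine, was called higher in effector cells, but it had no count in 6 libraries and at most 22.2 CPM, so no fold is given. Of 5 other receptor chains that use or compete for the gamma chain, 1 was higher and 2 were lower. Il4ra fell by 0.56 (SE 0.09, edgeR adjusted p = 4.37e-05) and Il21r by 0.19 (SE 0.05, edgeR adjusted p = 0.007). Il9r was called higher, at 3.63 to 10.6 CPM in effector libraries against 0 to 1.19 CPM in resting libraries. Il7r, the IL-7 receptor chain that Treg cells keep low, was at -0.01 (SE 0.17).

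Other kinases, factors and inhibitors of the pathway were called in both directions. Of 7 other JAK and STAT genes, 2 were higher (Jak2 0.41, SE 0.10, and Stat4 0.20, SE 0.07) and 2 were lower (Stat6 -0.22, SE 0.04, and Stat2 -0.20, SE 0.07). Of 5 other SOCS genes, 1 was higher, Socs5 at 0.56 (SE 0.17). Of 12 negative regulators, 4 were higher, among them Pias3 (0.99, SE 0.16), an inhibitor of STAT3, and the phosphatase gene Ptpn11 (0.55, SE 0.13). In that list 3 were lower: the phosphatase genes Ptpn6 (-0.31, SE 0.06) and Ptpn2 (-0.27, SE 0.05), and the ubiquitin ligase gene Cblb (-0.28, SE 0.07). Of 16 tested genes of the Ras/MAPK and PI3K arms, none was higher and 5 were lower, among them Pik3r1 (-0.45, SE 0.08), Nras (-0.39, SE 0.05) and Pik3cd (-0.37, SE 0.05). The median change of that list was -0.09, against -0.01 over all genes.

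Genes known to be induced by IL-2 or STAT5 in T cells did not move as a block. Of 29 tested, 15 were higher and 7 were lower, with a median of 0.40, against -0.01 over all genes, of which 17.5% were higher and 15.4% lower. Among those higher were Icos (2.34, SE 0.19), Ctla4 (1.35, SE 0.13) and Prdm1 (1.87, SE 0.22), which are also markers of effector Treg cells, and the survival gene Bcl2l1 (0.52, SE 0.11). Among those lower were the survival genes Bcl2 (-1.02, SE 0.11) and Mcl1 (-0.32, SE 0.09), the growth regulator Myc (-0.49, SE 0.10) and the cyclin gene Ccnd2 (-0.24, SE 0.07). Of 8 genes known to be repressed by these signals, 3 were lower. They were Klf2 (-1.63, SE 0.20) and Ccr7 (-0.42, SE 0.10), which serve homing to lymph nodes, and Il6ra (-0.62, SE 0.09), a chain of the IL-6 receptor. The other 2 called genes were higher, Cxcr5 (2.59, SE 0.26) and Bcl6 (0.65, SE 0.13), which mark follicular T cells. Many genes of these lists are also state markers, so their counts say nothing on IL-2 signals alone.

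**Figure D5:**
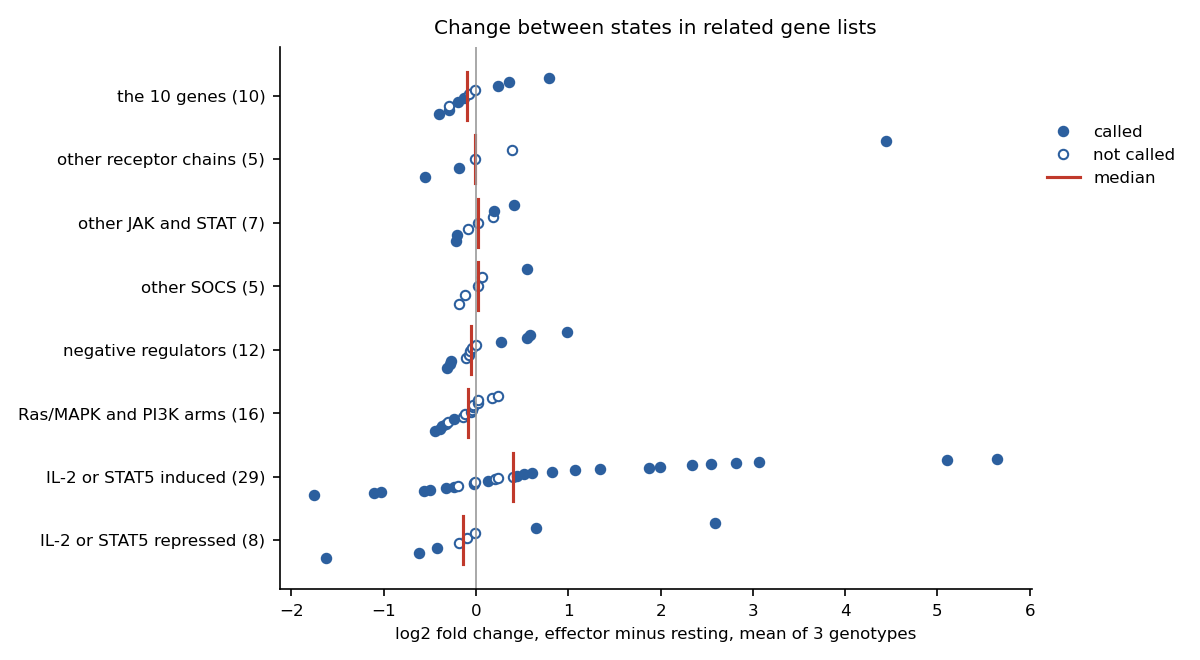
Log2 fold change of effector over resting cells (mean of 3 genotypes) for the 10 genes and 7 related lists, with the number of tested genes in brackets, filled points called and red lines at the list medians. The 10 genes lie between -0.40 and 0.79, while the IL-2 or STAT5 induced list spreads more widely, with Bcl2 at -1.02 and Icos at 2.34.

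In effector cells of fl/fl against +/+, 6 of the 29 induced genes were lower and 2 were higher, where 2.81% of all tested genes were called in either direction. Il10 had 0 to 3.08 CPM in fl/fl, against 19.6 to 37.8 CPM in +/+. Ctla4 was at -1.31 (SE 0.22, edgeR adjusted p = 0.00425) and Prdm1 at -1.78 (SE 0.33, edgeR adjusted p = 0.00779), while Bcl2 was at 0.78 (SE 0.19, edgeR adjusted p = 0.0364) and Ecm1 at 1.09 (SE 0.22, edgeR adjusted p = 0.0125). Of the 8 repressed genes, 2 were higher in fl/fl, namely Klf2 (1.69, SE 0.39) and Ccr7 (0.68, SE 0.17). None of the other JAK, STAT, SOCS, receptor chain or negative regulator genes was called by edgeR there, and of the 16 Ras/MAPK and PI3K genes 1 was, Pik3cd at 0.33 (SE 0.09, edgeR adjusted p = 0.0478).

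The genes whose pattern was most like that of a called member were found from log2 CPM centred over the 18 libraries, as the smallest root mean square difference. For Jak1 the closest were Msn, Dnm2 and Elmo1, at differences of 0.09 each beside a standard deviation of 0.23 for Jak1 itself. For Jak3 they were 2010111I01Rik, Igf1r and Apobec3 at 0.11 to 0.12, beside 0.27 for Jak3. For Socs2 they were Lrig1, Ttc39b and Fabp5 at 0.23 to 0.25, beside 0.50 for Socs2. For Stat5a the 3 closest were ribosomal protein genes, Rps14, Rpl27a and Rpl11, at 0.07 to 0.08 beside 0.18, while for Stat5b they were Vps4a, Ddx27 and D10Wsu52e at 0.10 beside 0.15. Il2rb was closest to Tbcd, Lmf2 and Traf1 at 0.13 beside 0.21, and Il2rg to Smu1, Arpc2 and Hnrnpk at 0.06 to 0.07 beside 0.09.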

How the data were processed

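Sorted mouse Treg cells were profiled by bulk RNA-seq in 18 libraries. Genome build mm10 and the tools RSEM 1.2.8, STAR 2.6.0 and bcl2fastq 2.17.1.14 are named, with no role, in the submitters' processing notes. No annotation or strand setting is given in the sources used here. The authors deposited RSEM expected counts per gene symbol, which were rounded to whole numbers for testing (29.4% of nonzero values were not whole), and FPKM values, which were used for levels across genes and in alternatives. FPKM values give no depth of their own, and they were fitted without TMM scaling. Libraries held 1658073 to 5756903 counts, with at least 90 for every member.

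In R 4.3.3, edgeR 4.0.16 was fitted with TMM factors (0.9394 to 1.063), filterByExpr and 6 group means over all 18 libraries. Contrasts were tested by quasi-likelihood F tests, with Benjamini-Hochberg adjustment over 10630 genes and calls at an adjusted p under 0.05. CPM values are scaled by TMM, changes are log2 values, and 95% intervals come from the fit. The procedure was checked on simulated counts. Alternatives were other scaling, no filter, DESeq2 1.42.0, limma 3.58.1 on log2(FPKM + 1) and log2(FPKM + 0.1), leaving out the ribosomal gene Rn45s, replicate blocks, only the groups compared, and each library left out.

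The labels call the replicate number a batch, so the numbers pair libraries by the labels. Residuals of the 9 effector and resting pairs of the same genotype and number had a mean correlation of 0.206 (0.139 to 0.344), and those of the same number in other genotypes 0.0657.

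The members, the lists and the naming rule were chosen with earlier results of these data known. The named genes were the 10 members, list genes that were called, and the 3 genes most like each called member. Gene positions are from GENCODE M21 (GRCm38), and promoters are from RefSeq. The counts of the floxed gene and of 1 gene of the lists are not reported here.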

Additional observations from a re-analysis of the deposited data

How the results depend on the processing

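Most values stayed on their side of the threshold, but most of them were not called in the main fit. Over single genes, 3362 values were the same, 47 lost and 20 gained a call, 11 moved without a call, and 0 turned sign with a call. An uncalled value that turned sign by less than its SE was also counted as the same, so the 3362 do not show a kept direction. The losses were uneven: Jak1 in fl/fl lost its call between states in 18 of 27 alternatives. Il2rg lost its call with the mean of 3 genotypes in 13 of 26. Of the 10 genes, 2 were called for effector minus resting in fl/fl, 1 with only the groups compared, and 0 to 2 when single libraries were left out. For fl/fl minus +/+ in effector cells the count was 1, against 0 with only the groups compared and 0 to 1 with libraries left out. For fl/fl minus fl/+ in effector cells it was 0, against 1 (Jak3) with no filter on low counts, with DESeq2 and with the replicate block, and 0 to 1 with libraries left out. The cause was not tested. The replicate block also added Socs1 between states and, within genotypes, Il2rb in fl/fl, and it ended no call among the 10 genes.

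Counts over all genes moved more. For fl/fl minus +/+ in effector cells edgeR called 299 genes, against 830 with no filter, 455 with DESeq2, 552 with the replicate block, 183 by limma on log2(FPKM + 0.1) and 154 with only the groups compared. Between fl/fl and fl/+ effector cells 72 were called, against 488, 181, 181, 14 and 4 in the same order. For the mean state change, counts gave 1861 genes higher and 1635 lower, against 2547 and 878 by limma on log2(FPKM + 1), where the median of all genes was 0.07 higher. On that scale Il2rg and Stat5b lost their calls between states.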
